A study of Mus musculus with 6 samples.

Results

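The 9 genes described here encode receptors that steer T cells into, within and out of lymphoid organs: the chemokine receptors Ccr7, Ccr9, Cxcr3, Cxcr4, Ccr2, Ccr4 and Cxcr5, and the sphingosine-1-phosphate receptors S1pr1 and S1pr4. They were taken from the table by gene symbol. All 9 were found among the 57010 gene identifiers of the count table. Their transcripts were measured by RNA sequencing in CD8+ T cells of mice with and without a directed deletion of the transcription factor MondoA, the glucose-responsive partner of MLX that is encoded by Mlxip. The 3 WT samples came from MondoA fl/fl mice, which carry the floxed gene without Cre, and the 3 KO samples from MondoA fl/fl CD4cre mice. All mice were C57BL/6 and 8 weeks old, and all cells had been sorted as naive CD8+ T cells from spleen and lymph nodes and then stimulated with anti-CD3/CD28 for 24 hours. The CD4cre transgene acts in the thymus before the CD4 and CD8 lineages part, so deletion is directed to developing T cells; how complete it was in the sorted cells was not measured here. Cre was carried by KO mice only, and what Cre itself does and what the deletion does cannot be told apart. No label ties a sample to 1 mouse, so the p-values measure spread among 6 samples that may in part be technical.

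All 9 are G protein-coupled receptors with a membrane-spanning core of helices, and they signal largely through the inhibitory G proteins of the Gi class. CCR7 reads CCL19 and CCL21 and brings naive T cells into lymph nodes, while S1PR1 reads the sphingosine-1-phosphate of lymph and blood and lets them out again. Activation through the T cell receptor is known to hold cells in the node for a time, in part because CD69 draws S1PR1 off the surface. CCR9, the receptor for CCL25, marks thymocytes, naive CD8 cells and cells bound for the small intestine, and CXCR3, the receptor for CXCL9, CXCL10 and CXCL11, is a mark of type 1 effector cells.

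The libraries held between 26150420 and 34447230 counts, and the 9 receptors together took between 0.183% and 0.225% of each library. Mlxip itself, read over the whole gene, stood at 124, 121 and 142 CPM (counts scaled to library size by the TMM method, in units of 1000000 reads) in the WT libraries 1 to 3, and at 79.5, 92.6 and 86.0 CPM in the KO libraries 1 to 3, the order used for all values below. The MondoA target Txnip stood at 219, 232 and 214 CPM in WT and at 80.4, 73.8 and 75.7 CPM in KO, so both genes separated the labelled genotypes. By edgeR the adjusted p was 0.125 for Mlxip and 3.85e-05 for Txnip, and by DESeq2 that of Mlxip was 8.60e-05. The 8 markers of CD8 T cells summed to between 1842 and 2489 CPM, led by Cd8a and Cd8b1, and all 8 had higher means in KO. Markers of other cell types were present at low level. The 9 B cell markers (led by Cd79a and Ms4a1) summed to between 33.2 and 106 CPM and the 9 myeloid markers (Mpeg1 and Cd68) to between 41.6 and 78.8. The 6 dendritic cell markers (Zbtb46 and Flt3) summed to between 10.6 and 37.2 CPM, the 4 CD4 T cell markers (Foxp3 and Zbtb7b) to between 9.52 and 26.2. The 5 NK cell markers summed to 10.1, 9.94 and 10.2 CPM in WT and to 3.34, 5.56 and 5.70 CPM in KO. Nearly all of this came from Klrb1c and Klre1, each lower in every KO library than in every WT library. Ncr1, Klra8 and Klra4 had at most 4 reads in any library and were too scarce to test. Their lower means in KO rest on those few reads. Klre1, an NK cell receptor gene, had a log2 fold change of -1.59 (adjusted p = 0.192 by edgeR and 0.000416 by DESeq2). The part of NK cells in the receptor values was not tested. By Xist and Y-linked genes, WT 3 and KO 2 were female and the other 4 libraries male, so each genotype held 1 female library. In such bulk samples, fewer cells of a type and less RNA per cell cannot be told apart.

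Promoter sequences are shown for Ccr9, the receptor with the smallest p between the genotypes, and for Cxcr4, the other receptor that stood higher in every KO library than in every WT library. They run from 250 bases before to 50 bases after the annotated start, 5′ to 3′ on the strand of the gene, and were taken from RefSeq on the GRCm38.p6 build. The window of Ccr9 is chr9:123766961-123767260 on the plus strand and that of Cxcr4 is chr1:128592250-128592549 on the minus strand. Capitals mark matches to CACCC, the core letters bound by KLF factors, of which KLF2 is known to maintain S1pr1 in naive T cells.
Ccr9: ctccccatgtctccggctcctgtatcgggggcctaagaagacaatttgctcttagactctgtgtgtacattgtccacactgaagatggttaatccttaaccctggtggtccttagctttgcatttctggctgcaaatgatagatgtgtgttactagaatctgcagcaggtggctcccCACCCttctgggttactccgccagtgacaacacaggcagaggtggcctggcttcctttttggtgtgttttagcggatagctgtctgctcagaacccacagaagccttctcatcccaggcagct
Cxcr4: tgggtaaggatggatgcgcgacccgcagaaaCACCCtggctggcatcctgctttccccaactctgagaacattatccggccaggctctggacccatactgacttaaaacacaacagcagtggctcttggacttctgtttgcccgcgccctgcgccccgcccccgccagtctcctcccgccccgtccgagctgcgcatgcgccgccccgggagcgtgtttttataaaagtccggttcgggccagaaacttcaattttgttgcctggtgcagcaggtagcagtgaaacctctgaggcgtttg

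Windows of this kind were at hand for 6 of the 9 receptors (Ccr2, Ccr4, Ccr9, Cxcr3, Cxcr4 and S1pr4). The E-box CACGTG, the core letters of the site that MondoA binds with MLX, was searched on both strands and stood in 0 of these 6 windows, against 7.15% of the 32851 promoter windows in the table. A pair of these exact E-boxes set 5 bases apart was in 0 of the 6 windows and in 0 of all 32851. As no window held it, this search could not set the receptors apart from other genes. Pairs with looser letters were not searched. The FOXO letters GTAAACA were in 0 of the 6, against 3.65% of all windows. The KLF letters CACCC were in 4 of the 6 (Ccr4, Ccr9, Cxcr4 and S1pr4), once in each, against 57.5% of all windows. No E-box, FOXO or KLF letters stood in the Ccr2 and Cxcr3 windows. In the sequences above, the match begins at position -73 in Ccr9 and at position -219 in Cxcr4, counted from the annotated start as 0. These are matches of letters in short windows and say nothing of binding.

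Per length, the receptors fell into an abundant and a scarce set. On the scale of CPM per kilobase of annotated exon, the WT mean ± SD over 3 samples was 298 ± 25.4 for Ccr7 and 228 ± 11.5 for S1pr1, the entry and exit receptors of the lymph node. S1pr4, a sphingosine-1-phosphate receptor found mainly on blood cells, followed at 102 ± 9.66, Cxcr3 at 93.1 ± 10.7 and Cxcr4, the receptor for CXCL12, at 86.9 ± 0.603. The WT ranges of S1pr4 (96.5 to 113) and Cxcr3 (82.2 to 104) overlapped, and that of Cxcr4 (86.3 to 87.5) lay within that of Cxcr3. Next came Cxcr5, the receptor of B cell follicles, at 7.22 ± 0.338 and Ccr4, which reads CCL17 and CCL22, at 6.30 ± 1.82, again with overlapping ranges. Ccr9 stood at 3.05 ± 0.372 and Ccr2, the receptor for CCL2, at 1.07 ± 0.549, with no overlap between the ranges of these receptors.

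The order in KO was the same for the first 6 receptors, and Ccr9 at 5.40 ± 0.910 CPM per kilobase there stood above Ccr4 at 5.04 ± 1.48, with overlapping ranges. The ranks depend on the length used. With the median length of the coding transcripts, which is 3.00 kb for Ccr9 in place of 10.3 kb of summed exon, Ccr9 stood at 10.4 CPM per kilobase in WT, above Cxcr5 at 8.85, and Cxcr4 at 116 stood above S1pr4 and Cxcr3. Ccr7 and S1pr1 kept the first places and Ccr2 the last by either length. In plain CPM, S1pr1 stood above 99.0% of the 16439 genes tested and Ccr7 above 98.6%.

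The comparison of KO with WT asks how the levels of these receptor transcripts stand 24 hours after stimulation in cells from the mice with CD4cre. In the log2 fold change of the edgeR fit, 6 of the 9 receptors were higher in KO and 3 lower, with a median of 0.15, against 7758 higher and 8681 lower and a median of -0.016 over all 16439 genes tested. The 8 CD8 T cell markers, all higher in KO, had a median of 0.20. Of the 9, 0 passed an adjusted p of 0.05, in edgeR's quasi-likelihood test (Benjamini-Hochberg), where 0.0122% of all genes tested did. At an unadjusted p under 0.05, 2 of 9 were left (Ccr9 higher, Ccr2 lower), against 10.8% of all genes. The 3 KO and 3 WT values did not overlap for 3 of 9 (Ccr9 and Cxcr4 higher, Cxcr5 lower), against 16.4% of all genes. DESeq2 called 1 of 9, Ccr9, against 0.931% of all genes. Permuting 3 against 3 samples exactly gives no p below 0.1, so single genes were tested with the spread that edgeR shares across genes.

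**Figure D1:**
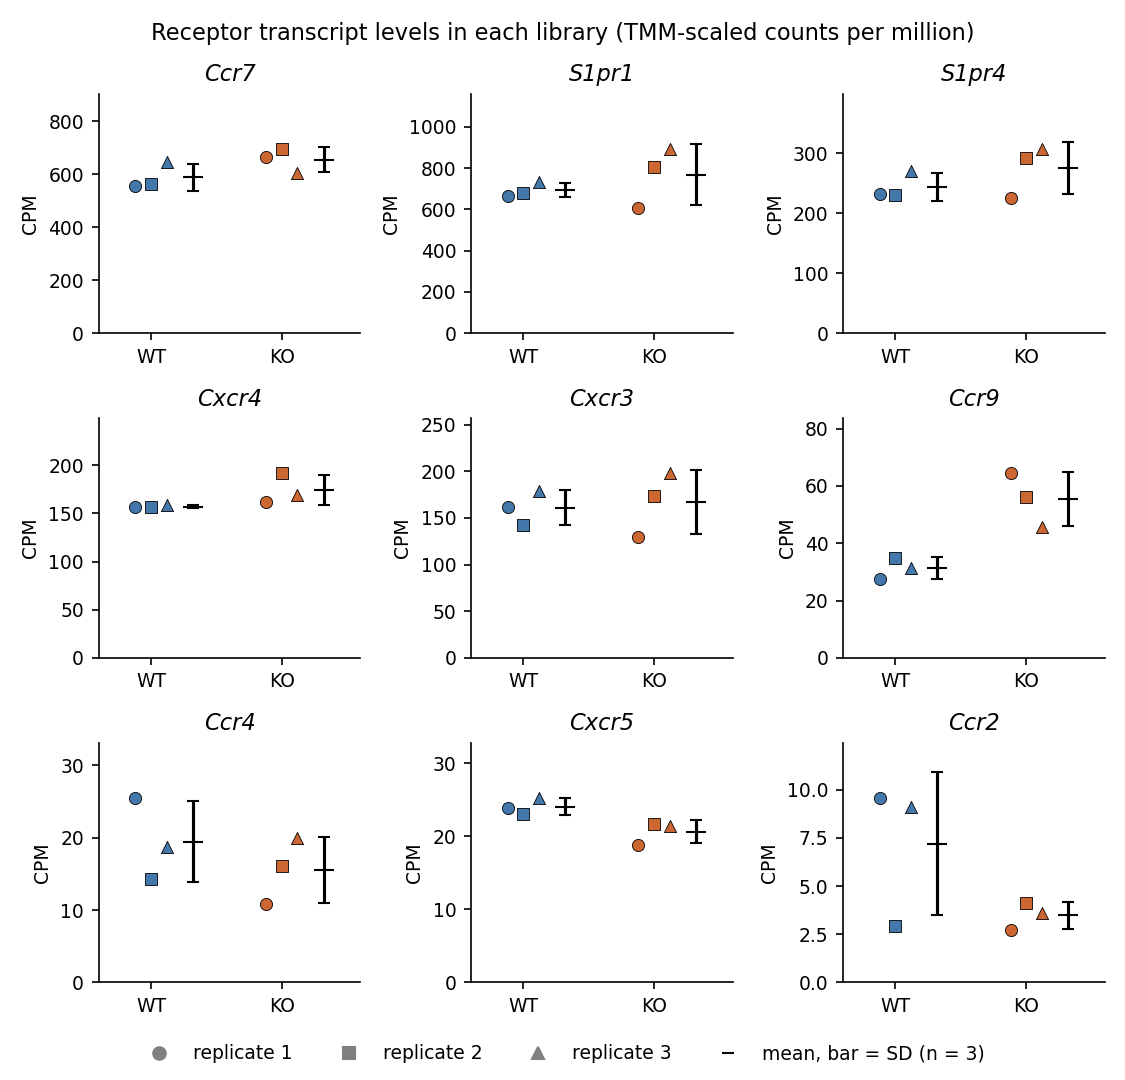
TMM-scaled CPM (linear axis from 0) of the 9 receptors in each of the 3 WT (blue) and 3 KO (orange) libraries, 1 point per library with the shape giving the replicate number; the black bar is the mean with its SD. Ccr9 lies between 27.4 and 35.0 CPM in WT and between 45.8 and 64.4 CPM in KO, while the KO libraries of S1pr1, S1pr4 and Cxcr3 straddle the WT values.

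Ccr9 (ENSMUSG00000029530), the gut-homing receptor, had the smallest p of the 9. It stood at 27.4, 35.0 and 31.5 CPM in WT and at 64.4, 56.2 and 45.8 CPM in KO. Every KO library lay above every WT library, with the lowest KO value in KO 3. The KO level was 1.77 times that of WT (95% interval 1.43 to 2.19), or 0.83 on the log2 scale (standard error 0.138). Ccr9 had the 13th smallest p of all 16439 genes, and the 4th smallest among the 7758 that were higher in KO. Its adjusted p was 0.155 by edgeR's quasi-likelihood test, which missed the threshold, and 4.24e-05 by DESeq2. By edgeR it also passed without KO 3 (log2 fold change 0.95, adjusted p = 0.0158) and when scarce genes were not filtered out (adjusted p = 5.96e-10). The fit without the filter called 511 genes, against 2 with the main settings. It also passed Ccl22, whose groups overlapped (adjusted p = 0.00412 by edgeR, against 0.726 with the filter). Passing in that fit is therefore no separate support for the Ccr9 difference. Over the other alternatives the adjusted p of Ccr9 ran from 0.108 to 0.847 at log2 fold changes between 0.71 and 0.92.

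Ratios of raw counts within a library do not depend on scaling between libraries. They use the same Ccr9 counts and are no separate support for its difference. There were 20.4, 16.1 and 20.6 reads of Ccr7 for each read of Ccr9 in WT, against 10.4, 12.4 and 13.2 in KO. Against Cxcr4, the ratio of Ccr9 was 0.175, 0.223 and 0.199 in WT and 0.398, 0.294 and 0.270 in KO. Of the 8 ratios of Ccr9 to another of the receptors, 4 did not overlap between the genotypes (to Ccr7, Cxcr4, Cxcr5 and Ccr2). Those to Cxcr3, Ccr4, S1pr1 and S1pr4 overlapped. Among the 28 ratios that leave Ccr9 out, 4 did not overlap, and each of these had Cxcr5 as one of its genes. The share over all pairs of genes was not computed.

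Reads near Ccr9 were looked at as a further measure, since the strand setting of the counting is not known. Annotated exons of Slc6a20a, an amino acid transporter, and of AC165425.1 overlap those of Ccr9 on the other strand. These genes held at most 0.122 and 0.295 CPM in any library. Gm17200 overlaps Ccr9 on the same strand and shares 2.13% of its 50-base words. It stood at 0.845 CPM in WT and 0.854 CPM in KO on average. The next gene on one side, Lztfl1, which acts in ciliary transport, stood at 20.1, 22.7 and 17.0 CPM in WT and at 31.1, 23.2 and 26.4 CPM in KO. The difference was 0.43 on the log2 scale (adjusted p = 0.373 by edgeR). The next on the other side, Fyco1, an adaptor for vesicle transport, had a log2 fold change of 0.098. The chemokine receptor gene beyond it, Cxcr6, had -0.23. In RefSeq order, Ccr9 and Ccr2 lie on chromosome 9 on either side of the chemokine receptor genes Cxcr6, Xcr1, Ccr1 and Ccr3, with Fyco1 between Ccr9 and Cxcr6. The log2 fold changes of Ccr9 and Ccr2 stood on opposite sides of 0.

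By the root mean square difference of log2 CPM centred on the mean of the 6 libraries, the 3 genes nearest to Ccr9 among 9064 were Adgrg5, an adhesion G protein-coupled receptor, at 0.125, and Tgfbr3, a TGF-beta co-receptor, and Lmna, a nuclear lamin, both at 0.145. Ccr9 itself deviated by 0.441 from its own mean on that measure. Adgrg5 stood at 29.1, 33.2 and 33.9 CPM in WT and at 56.7, 52.3 and 39.0 CPM in KO. Likeness over 6 libraries among so many genes is a description only. Thymocytes are the other T lineage cells rich in Ccr9. Of 5 thymocyte markers, Rag2 had 0 reads in all 6 libraries, Rag1 between 6 and 19 reads and Ptcra between 1 and 14, and their summed level was 15.9, 16.5 and 15.8 CPM in WT and 14.95, 16.2 and 21.2 CPM in KO, most of it from Cd1d1. Dntt, the terminal transferase of developing lymphocytes, stood at 1.46, 1.80 and 1.25 CPM in WT and at 2.96, 2.26 and 3.48 CPM in KO. The part of such cells in the Ccr9 difference was not tested.

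**Figure D2:**
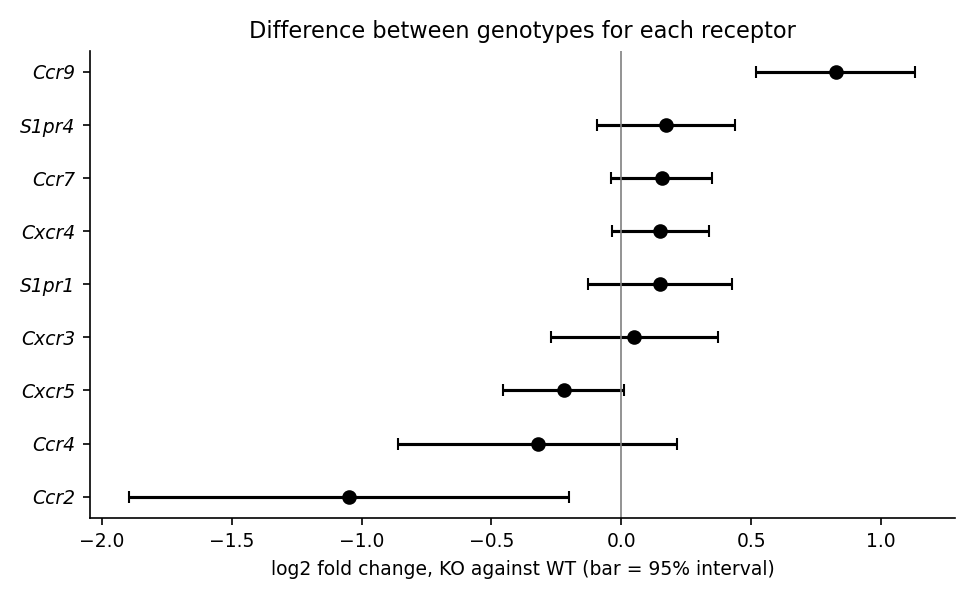
Log2 fold change of KO against WT for each receptor from the edgeR fit; points are estimates and bars 95% intervals, not adjusted for the number of genes tested. The intervals of Ccr9 (0.52 to 1.13) and Ccr2 (-1.89 to -0.20) leave out 0, and those of the other 7 receptors include it.

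Ccr7 (ENSMUSG00000037944), the lymph node entry receptor, stood at 558, 562 and 647 CPM in WT and at 667, 697 and 604 CPM in KO. WT 3 lay above KO 3, so the groups overlapped. KO exceeded WT by 0.16 on the log2 scale (standard error 0.0870), and the 95% interval ran from a fold of 0.974 to 1.27.

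S1pr1 (ENSMUSG00000045092), the exit receptor, stood at 667, 681 and 733 CPM in WT and at 606, 807 and 894 CPM in KO. KO 1 was the lowest of the 6 libraries and KO 2 and KO 3 were the highest. The log2 fold change was 0.15 (standard error 0.125), with a 95% interval from 0.915-fold to 1.34-fold, and it ran from 0.029 without KO 3 to 0.30 without KO 1.

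S1pr4 (ENSMUSG00000044199) took the same course as S1pr1, with 231, 230 and 271 CPM in WT and 226, 292 and 307 CPM in KO. KO 1 was again the lowest library. Its log2 fold change was 0.17 (95% interval -0.094 to 0.44). The ratio of S1pr1 to S1pr4 counts was the steadiest of the 36 ratios between the receptors. It was 2.88, 2.96 and 2.71 in WT, against 2.69, 2.76 and 2.91 in KO, with a standard deviation of 0.058 on the log2 scale.

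Cxcr3 (ENSMUSG00000050232), which lies on the X chromosome, stood at 162, 142 and 179 CPM in WT and at 130, 173 and 198 CPM in KO. The lowest and the highest library were both KO. The log2 fold change was 0.051 (95% interval -0.27 to 0.37) and turned to -0.015 when libraries were scaled by their size alone. With a term for sex it was 0.055.

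Cxcr4 (ENSMUSG00000045382) stood at 156, 157 and 158 CPM in WT and at 162, 191 and 170 CPM in KO. The 3 KO libraries lay above the 3 WT libraries, KO 1 by a small margin. The KO level was 1.11 times that of WT (95% interval 0.975 to 1.26), with an adjusted p of 0.536 by edgeR. The log2 fold change of 0.15 was 0.079 without KO 2 and 0.083 when libraries were scaled by their size alone.

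The KO libraries did not behave alike over the receptors. KO 1 held the lowest value of 6 of the 9 (Cxcr3, Ccr2, Ccr4, Cxcr5, S1pr1 and S1pr4) and the highest of 1, Ccr9. KO 3 held the highest value of 3 (Cxcr3, S1pr1 and S1pr4). The share of all genes tested with these libraries at the extremes was not computed. Over 9866 genes, KO 1 also differed more from KO 2 and KO 3 (median chi-square per gene 8.2 and 8.31) than those did from each other (4.87). The counts of extremes are thus no trait of the receptors in particular. Klf2, the zinc finger factor known to maintain S1pr1, stood at 409, 443 and 525 CPM in WT and at 399, 639 and 551 CPM in KO, with KO 1 again the lowest. Cd69, whose product draws S1PR1 off the surface, stood at 298, 397 and 335 CPM in WT and at 419, 372 and 254 CPM in KO, with KO 1 the highest and KO 3 the lowest. The part of the state of activation in these library differences was not tested.

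**Figure D3:**
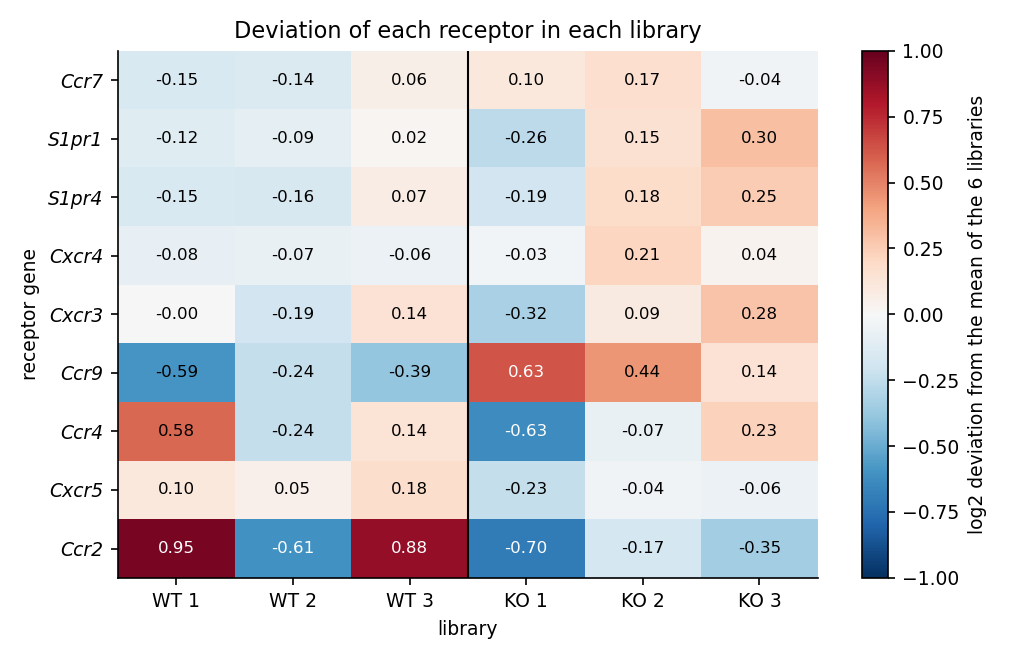
Log2 deviation of each receptor (rows) in each library (columns) from its mean over the 6 libraries; red is higher, blue lower, and the number in each cell is the deviation. KO 1 is negative for S1pr1 (-0.26), S1pr4 (-0.19) and Cxcr3 (-0.32), where KO 3 is positive (0.30, 0.25 and 0.28), while Ccr9 is negative in the 3 WT libraries and positive in the 3 KO libraries.

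Of the scarce receptors, Ccr2, Ccr4 and Cxcr5 had lower means in KO, and Ccr9 a higher one. Ccr2 (ENSMUSG00000049103), the receptor for CCL2 on monocytes and effector cells, stood at 9.56, 2.92 and 9.11 CPM in WT and at 2.70, 4.12 and 3.60 CPM in KO. WT 1 and WT 3 were high, and WT 2 lay within the KO range. The log2 fold change was -1.05 (standard error 0.381), with an adjusted p of 0.392 by edgeR, and it ran from -1.42 without WT 2 to -0.77 without WT 1. Ccr2 passed by edgeR only when scarce genes were not filtered out (adjusted p = 0.000451). That fit called 511 genes, among them Ccl22, whose groups overlapped as those of Ccr2 did. Over the same libraries the 6 dendritic cell markers summed to 31.7, 17.4 and 37.2 CPM in WT and to 10.6, 20.2 and 20.6 CPM in KO, with all 6 lower on average in KO, and WT 1 and WT 3 were the highest there too. The 9 myeloid markers summed to 77.5, 41.6 and 78.8 CPM in WT and to 48.6, 57.0 and 47.6 CPM in KO, with 8 of 9 lower on average in KO. Most of this sum came from Mpeg1 (means of 42.7 CPM in WT and 31.2 CPM in KO), and Cd68 had the higher mean in KO. Of the 8, Lyz2, Csf1r, Itgam and Cd14 had means of at most 0.724 CPM in either genotype, so their direction rests on few reads. The monocyte gene Lyz2 had between 0 and 12 reads in each library and the receptor gene Csf1r between 2 and 27. The 3 genes nearest to Ccr2 by the measure above were Ppfibp2, a liprin, at 0.160, the MHC class II gene H2-Aa at 0.166 and the cytokine receptor gene Csf2rb2 at 0.172. H2-Aa stood at 69.7, 28.8 and 76.2 CPM in WT and at 24.4, 43.3 and 39.3 CPM in KO. The part of these cells in the Ccr2 values was not tested.

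Ccr4 (ENSMUSG00000047898) stood at 25.5, 14.3 and 18.7 CPM in WT and at 10.8, 16.1 and 19.9 CPM in KO. WT 1 was the highest and KO 1 the lowest library. On the log2 scale KO minus WT was -0.32 (95% interval -0.86 to 0.22), and -0.074 without WT 1 or -0.11 without KO 1. The 4 CD4 T cell markers, all lower on average in KO, summed to 26.2, 13.7 and 20.1 CPM in WT and to 9.52, 15.5 and 11.4 CPM in KO. Foxp3, the factor of regulatory T cells that often carry CCR4, stood at 15.2, 6.31 and 11.5 CPM in WT and at 4.63, 9.40 and 5.65 CPM in KO, and WT 1 and KO 1 were the extremes there as well. The KO library highest for Ccr4, at 19.9 CPM, lay above all WT libraries but WT 1. For Foxp3 (5.65 CPM) and for the summed CD4 T cell markers (11.4 CPM) that same library lay below all WT libraries. The part of CD4 and regulatory T cells in the Ccr4 values was not tested.

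Cxcr5 (ENSMUSG00000047880) stood at 23.9, 23.0 and 25.3 CPM in WT and at 18.8, 21.7 and 21.4 CPM in KO. Every KO library lay below every WT library. The KO level was 0.858 times that of WT (95% interval 0.729 to 1.01), a log2 fold change of -0.22, with an adjusted p of 0.475 by edgeR. The 9 B cell markers, all lower on average in KO, summed to 81.6, 63.0 and 106 CPM in WT and to 80.1, 65.8 and 33.2 CPM in KO. KO 3 was the lowest there, where KO 1 was the lowest for Cxcr5, and the part of B cells in the Cxcr5 values was not tested. Exons of Bcl9l, a WNT pathway coactivator, overlap those of Cxcr5 on the other strand, and this gene stood at 448, 485 and 547 CPM in WT and at 502, 677 and 687 CPM in KO. Reads of the overlap cannot be told apart without strand.

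**Figure D4:**
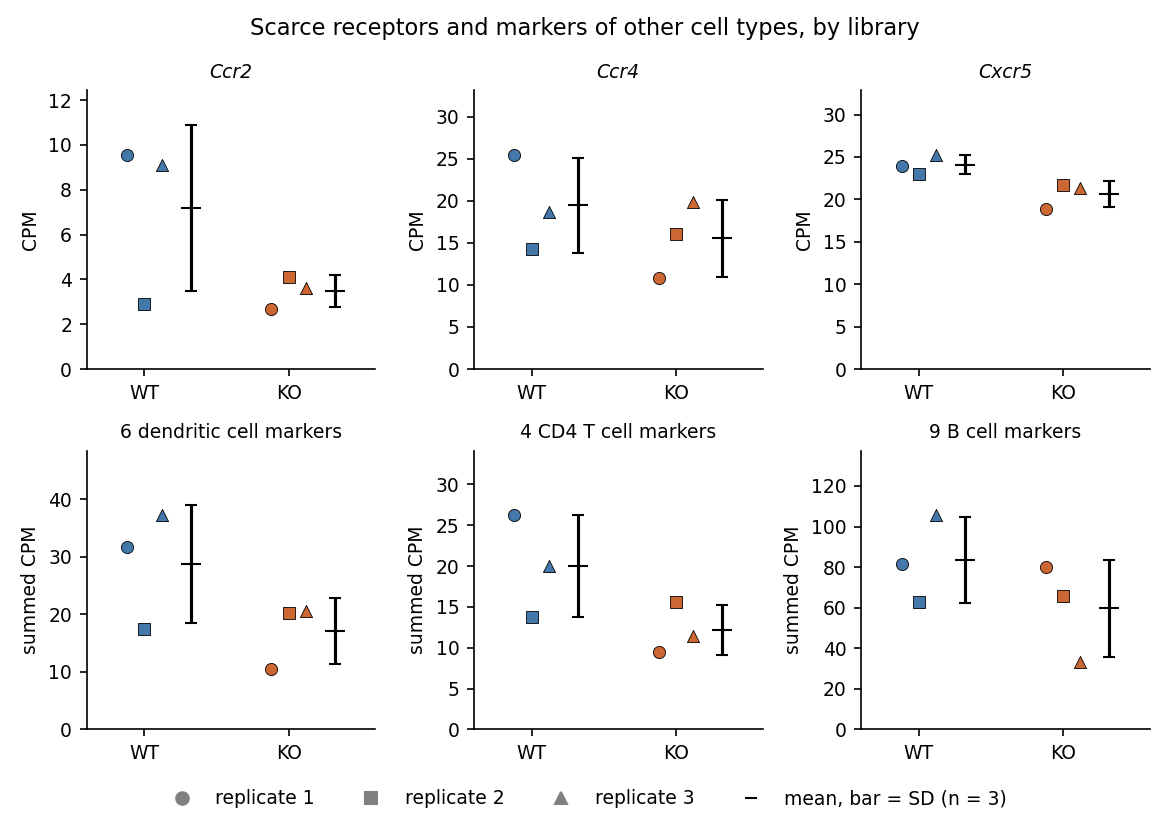
Upper row: CPM of Ccr2, Ccr4 and Cxcr5 in each library. Lower row: summed CPM of 6 dendritic cell, 4 CD4 T cell and 9 B cell markers in the same libraries (linear axes from 0; points are libraries, black bars mean and SD). WT 1 and WT 3 are the highest for Ccr2 and for the dendritic cell markers, and WT 1 is the highest for Ccr4 and for the CD4 T cell markers. The KO library highest for Ccr4 is below all WT libraries for the CD4 T cell markers.

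Of 21 other receptors for chemokines, sphingosine-1-phosphate and related lipids, 14 were abundant enough to test, 4 of them higher in KO and 10 lower. Their median log2 fold change was -0.19. Of the 14, 0 passed by edgeR or DESeq2, and 3 had an unadjusted p under 0.05 by edgeR, all lower in KO. Over all genes tested 10.8% had such a p, a share that also applies beside the counts for the lists below. S1pr2, a sphingosine-1-phosphate receptor that holds cells in place, stood at 12.3, 14.1 and 17.1 CPM in WT and at 9.78, 11.8 and 10.3 CPM in KO, a log2 fold change of -0.45 (adjusted p = 0.379 by edgeR). Cx3cr1, the fractalkine receptor of terminal effector cells, stood at 3.46, 1.18 and 12.8 CPM in WT and at 1.29, 0.702 and 1.81 CPM in KO. WT 3, the female WT library, was the highest, and KO 2, the female KO library, was the lowest. The log2 fold change of -2.18 was -0.87 without WT 3 and -1.70 with a term for sex. S1pr5, the exit receptor of effector and NK cells, had 78 reads in WT 3 and between 8 and 23 in the other libraries.

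Ligands were mostly scarce. Of the 13 ligand genes of the 9 receptors, 5 were tested, 1 higher and 4 lower in KO. Of these 0 passed by edgeR or DESeq2 and 1, Cxcl9, had an unadjusted p under 0.05. Ccl19, Ccl21a, Ccl2, Ccl7, Ccl12 and Cxcl13 had 0 reads in all 6 libraries, which in the shallowest library allows up to 0.115 CPM by counting error. Cxcl9, a CXCR3 ligand, stood at 13.3, 6.86 and 9.03 CPM in WT and at 4.15, 7.02 and 5.18 CPM in KO, a log2 fold change of -0.84 (adjusted p = 0.368 by edgeR), whereas Cxcl10, a further CXCR3 ligand, had -0.078. Ccl25, the CCR9 ligand, stood at 19.4, 14.1 and 17.7 CPM in WT and at 13.2, 13.2 and 15.1 CPM in KO, a log2 fold change of -0.30. Ccl22, a CCR4 ligand made by dendritic cells, stood at 79.5, 32.2 and 75.6 CPM in WT and at 18.4, 41.4 and 76.4 CPM in KO. Its lowest library was KO 1, as for Ccr4, and its log2 fold change of -0.46 was -0.082 without KO 1 and -1.06 without KO 3. Among the 8 genes of sphingosine-1-phosphate synthesis, export and breakdown, 6 were tested, 2 higher and 4 lower, and 0 passed by edgeR or DESeq2 or had an unadjusted p under 0.05. The log2 fold change of Sgpl1, the lyase, was -0.17, that of the kinase gene Sphk2 0.16 and that of Sphk1, a scarce kinase gene, -0.66, which was -1.32 without KO 2 and -0.34 without KO 3.

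Of 16 genes that couple the receptors to movement 11 were higher and 5 lower in KO, around a median of 0.069 on the log2 scale. Of these 0 passed by edgeR or DESeq2, and 2 had an unadjusted p under 0.05. Rhoh, a small GTPase of blood cells, had a log2 fold change of 0.30, Elmo1, a partner of DOCK2, of -0.17 and the actin regulator Coro1a of 0.13. Gnai2, which encodes a main Gi subunit behind chemokine receptors, had 0.018. Of 14 genes that switch the receptors off or keep cells in place, 13 were tested, 8 of them higher and 5 lower, with 0 called by edgeR or DESeq2 and 2 at an unadjusted p under 0.05. Rgs10, a regulator of G protein signalling, stood at 49.9, 40.8 and 39.8 CPM in WT and at 54.0, 50.8 and 65.8 CPM in KO, a log2 fold change of 0.39 (adjusted p = 0.373 by edgeR). Arrb1, beta-arrestin 1, stood at 41.2, 39.3 and 44.4 CPM in WT and at 42.6, 65.5 and 62.9 CPM in KO. KO 1 lay inside the WT range, and the log2 fold change was 0.45. Rgs1, which blunts chemokine responses, had -0.44 and overlapped between the groups.

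Of 17 transcription factors tied to these receptors or to the naive and effector states in which they are used, 14 were higher in KO and 3 lower, around a median of 0.15 on the log2 scale. By edgeR 0 passed and by DESeq2 2 did (Foxo1 and Id2), against 0.931% of all genes tested by DESeq2. At an unadjusted p under 0.05 by edgeR there were 6, of which 5 were higher, against 10.8% of all genes tested in either direction. Foxo1, which is known to keep up Klf2 and Ccr7 in naive T cells, stood at 210, 217 and 201 CPM in WT and at 244, 263 and 263 CPM in KO, without overlap. Its log2 fold change was 0.29 (adjusted p = 0.330 by edgeR and 0.0427 by DESeq2). Id2, an inhibitor of E proteins that favours effector cells, stood at 42.7, 29.7 and 46.6 CPM in WT and at 26.2, 26.7 and 27.2 CPM in KO, a log2 fold change of -0.57 (adjusted p = 0.333 by edgeR and 0.0436 by DESeq2). Eomes, a T-box factor of memory CD8 cells, had a log2 fold change of 0.40. Tbx21, known to drive Cxcr3, had -0.19 with overlapping groups, and Gata3, known for Ccr4 in helper cells, had 0.41. Of 9 homing adhesion genes, 6 were higher and 3 lower, with 0 called by edgeR or DESeq2 and 1, Itgb1, at an unadjusted p under 0.05. The integrin chain genes Itgb1, Itgb2 and Itga4 had log2 fold changes of -0.30, 0.18 and 0.15.

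**Figure D5:**
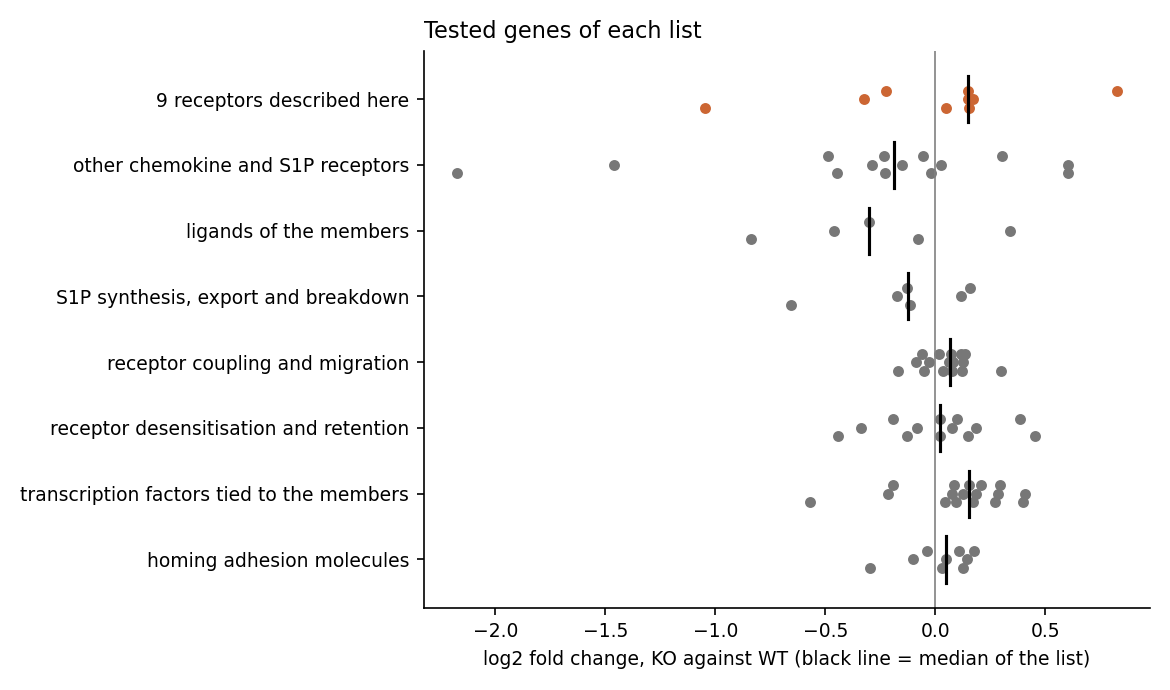
Log2 fold change of KO against WT for each tested gene of the 9 receptors (orange) and of 7 lists of related genes (grey), with the black line at the median of the list; the vertical position within a list only separates the points. The median is 0.15 for the 9 receptors and -0.19 for the other chemokine and sphingosine-1-phosphate receptors, and 0 genes shown passed an adjusted p of 0.05 by edgeR.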

How the data were processed

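The authors deposited raw read counts per Ensembl gene for 3 WT and 3 KO samples, grouped here by the genotype in the labels. The submitters' processing notes name GRCm39, HISAT2, Subread and featureCounts; versions, annotation and strand setting: not given in the sources used here. Symbols (52029 of 57010 identifiers) and exon lengths came from GENCODE M21 on GRCm38, and promoter windows from RefSeq. The filter filterByExpr (minimum count 10, minimum total 15) left 16439 genes. Genotype was tested two-sided in edgeR 4.0.16 (quasi-likelihood, TMM scaling, limma 3.58.1, R 4.3.3), and p-values were adjusted by Benjamini-Hochberg across the whole table. Alternatives were DESeq2 1.42.0, other scalings and filters, the replicate number as a block, a term for sex read from the counts, and leaving out each library. The 95% intervals come from the edgeR fit, and log2 deviations used a pseudocount of 0.5 CPM. A count of 0 was taken to allow 3 counts; such limits cover counting error only. The procedure was tested on simulated counts, and no replicate matched another within sampling noise (median chi-square per gene 4.70 to 8.31 over 9866 genes).

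The receptors and lists were chosen with earlier results of these data known. Named by rule were all 9 receptors, Mlxip, Txnip, the 3 tested genes of smallest p in each related list, the 2 most abundant markers of each marker list, and the 3 protein-coding genes (mean of 5 CPM or more) nearest in pattern to the receptor of smallest p in each direction. Klf2, Cd69, Cxcl10, Gnai2, Tbx21, Gata3, S1pr5, Csf1r, Lyz2, the genomic neighbours, the overlapping genes and the ratios were chosen after their values were seen. Some genes that the rule names are not reported here.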

Additional observations from a re-analysis of the deposited data

How the results depend on the processing

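Of the 9 receptors, 8 kept the sign of their log2 fold change under all 13 alternatives. Cxcr3 did not: it was -0.015 when libraries were scaled by size alone, -0.025 without WT 2 and between -0.086 (without KO 3) and 0.21 (without KO 1) with 1 library left out. The number of genes called was 2 with the main settings, 153 with DESeq2, 511 without a filter on low counts and 6 with the sex term, and between 2 and 80 with 1 library left out, the highest being without KO 3. The receptors called numbered 0 with the main settings, 1 with DESeq2 (Ccr9), 2 without a filter (Ccr9 and Ccr2), and between 0 and 1 with 1 library left out (Ccr9, without KO 3). Without the filter Cx3cr1, Cxcl9, Ccl22, Rgs10, Arrb1, Rgs1, Id2 and Eomes passed too. The cause of these differences was not tested. The median log2 fold change of the 9 receptors was 0.15, and between 0.029 (without KO 3) and 0.20 (without KO 1) with 1 library left out. Scaled by library size alone it was 0.083, beside a median of -0.083 over all genes tested. With the replicate number as a block the median was 0.13, and 2 genes and 0 receptors were called. No pairing of the samples by replicate number was seen. The deviations of same-numbered libraries correlated at 0.041, -0.52 and -0.11, and no WT library correlated best with the KO library of its number. The highest correlation, 0.642, joined WT 3 and KO 2, the female libraries. With 3 libraries in each group, these values cannot decide whether same-numbered samples were handled together. The scarcest receptor, Ccr2, had 84 to 334 reads a library. Depth leaves the ligand genes at 0 reads undecided below 0.115 CPM in the shallowest library.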
